A study of Mus musculus with 2 samples.

Results

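The 10 genes described here encode AP-1 subunits and other products of the immediate-early response. They are Fos, Fosb and Fosl2 of the Fos family, Jun, Junb and Jund of the Jun family, the zinc finger factor Egr1, and Ier2, Ier3 and Ier5. They were chosen by name, as members of the AP-1 and immediate-early families, from the 22441 gene symbols listed in both count matrices. Cells came from fresh hearts of C57/B6 mice in 2 groups, littermate controls of wild-type genotype and mice that overexpress AC8 (adenylyl cyclase 8), with no treatment in either. AC8 makes the second messenger cyclic AMP, and the series title places the transgene in cardiomyocytes. The promoter that drives it, the number of mice in each pool, and their age and sex are not given in the sources used here. Cells sorted as leukocytes (CD45+CD31-), mesenchymal cells (CD45-CD31-) and endothelial cells (CD45-CD31+) were combined in equal numbers, and each genotype gave 1 droplet library from pooled mice. With 1 library per genotype no test between genotypes was possible, and genotype, pool and preparation cannot be told apart.

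AP-1 is a transcription factor made of a Jun protein paired with a Fos protein or with another Jun protein. Its genes are transcribed within minutes of a stimulus, without new protein synthesis, from growth factors, stretch, cyclic AMP or stress, and their transcripts decay quickly. Taking a solid tissue apart with enzymes and sorting its cells can induce the same genes, so that their level in single-cell data holds both the state of the cell in the heart and its response to the preparation. In the heart, AP-1 and Egr1 are known for their part in fibroblast activation, inflammation and the response to load.

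The wild-type and AC8 libraries held 5800 and 4867 deposited cells, with a median of 1344 and 1832 unique molecular identifiers (UMIs, one per captured transcript). After filters, 3546 and 3578 cells remained, with medians of 1884 and 2326 UMIs, so the AC8 cells were the deeper ones. No UMI of Adcy8, the mouse gene that encodes AC8, was found after filters. A count of 0 gives a limit of 0.400 and 0.314 UMIs per 1000000 UMIs (CPM). Among all deposited AC8 cells 1 UMI was found. The labels do not say whether the transgene has the mouse sequence, so these counts need not measure it. The summed CPM of 9 cardiomyocyte markers was 86.4 and 68.0. Cells fell into 18 clusters built without the 10 genes or any other stress gene, and fixed markers placed them in 10 classes. In the 4 classes with at least 100 cells in each library, all markers of the class were detected. These were fibroblast-like (1898 and 1534 cells), macrophage-like (603 and 757), endothelial-like (624 and 572) and B cell-like (111 and 292) cells. The 10 genes held 2.73% of all deposited UMIs in the wild-type library and 2.48% in the AC8 library, and 1.73% and 1.68% in the shallow cells that were left out.

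The sequences just upstream of the genes are shown because the Fos and Junb genes, which are known to answer to cyclic AMP, carry in this stretch the short element bound by cyclic AMP responsive factors. RefSeq (GRCm38.p6) promoters were matched for 8 of the 10 genes, and Egr1 and Ier2 were not among them. The 150 bases before the annotated start of 5 genes are given on the gene's strand. Capitals mark TGACG, the half-site of the cyclic AMP response element, and TATAAA, the TATA box. In order, they lie at chr12:85473740-85473889 (plus strand), chr7:19310046-19310195 (minus), chr4:95052223-95052372 (minus), chr8:84978749-84978898 (minus) and chr1:155099637-155099786 (minus).
Fos: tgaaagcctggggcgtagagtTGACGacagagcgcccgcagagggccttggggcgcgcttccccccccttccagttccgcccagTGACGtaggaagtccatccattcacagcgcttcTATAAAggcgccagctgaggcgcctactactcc
Fosb: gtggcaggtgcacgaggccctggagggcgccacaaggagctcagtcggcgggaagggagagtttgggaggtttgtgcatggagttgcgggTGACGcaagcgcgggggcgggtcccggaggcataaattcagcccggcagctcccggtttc
Jun: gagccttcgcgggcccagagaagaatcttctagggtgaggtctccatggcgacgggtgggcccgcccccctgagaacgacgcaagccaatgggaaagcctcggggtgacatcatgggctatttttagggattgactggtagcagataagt
Junb: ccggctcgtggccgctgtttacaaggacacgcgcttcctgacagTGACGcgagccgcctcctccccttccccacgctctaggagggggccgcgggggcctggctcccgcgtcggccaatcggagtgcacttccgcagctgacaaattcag
Ier5: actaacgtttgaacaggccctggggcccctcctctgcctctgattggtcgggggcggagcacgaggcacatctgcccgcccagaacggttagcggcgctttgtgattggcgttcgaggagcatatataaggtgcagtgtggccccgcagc

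Motifs were searched on both strands in the window from 250 bases before to 50 after the start. TGACG was held by 3 of the 8 promoters, those of Fos (129 and 66 bases before the start), Fosb (60 bases before) and Junb (106 bases before), against 20.8% of 32851 RefSeq windows. GGGCGG, the GC box, was in 6 of 8 against 35.7%, and the letters TATAAA in 2 of 8, against 13.6%. In Fos they lie 33 bases before the start. In Junb they run from base 1 of the RefSeq start, so they are not upstream of that start. The GENCODE gene of Junb, on the minus strand, starts further downstream (84978718 on chromosome 8). The letters therefore lie upstream of the GENCODE start. The full element TGACGTCA (1.79% of windows), the AP-1 site TGANTCA (7.81%) and the CArG box by name (1.63%) were in 0 of 8, which says only that these letters are not in the window. TGACG is also the first part of TGACGTCA, so each full element would count as a half-site too. The Jund window lies wholly upstream of the GENCODE gene (start at 70698949 on chromosome 8). That of Fosl2 lies inside its gene (start at 32135801 on chromosome 5). The RefSeq starts of Fosb, Junb and Ier3 also differ from the GENCODE starts. For all of these genes the counts describe the RefSeq start used, not the start of the GENCODE gene.

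The 10 genes together were highest in fibroblast-like, macrophage-like and mural-like cells in both libraries. In wild type, they held 32606 CPM in fibroblast-like, 32386 in macrophage-like and 30674 in mural-like cells (the smooth muscle and pericytes of vessels), where the fibroblast-like and macrophage-like intervals overlapped. Endothelial-like cells followed with 20230.5 CPM and dendritic cell-like cells with 15184. Schwann-like (12952), NK cell-like (11588), T cell-like (11249), monocyte-like (10391) and B cell-like (9601) cells came last, each overlapping its neighbour in this order. The highest class was 3.40 times the lowest. In AC8, mural-like cells came first with 30353 CPM, ahead of fibroblast-like (28328) and macrophage-like (28153) cells, followed by endothelial-like cells (23891) and then NK cell-like cells, with 16444 CPM and no overlap with the classes beside them. T cell-like cells came last with 10856, a spread of 2.80 times. The leading genes of the NK cell-like class include Cd3g, a T cell receptor subunit, so it may hold T cells as well. All intervals are exact at 95% and cover counting error only.

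**Figure D1:**
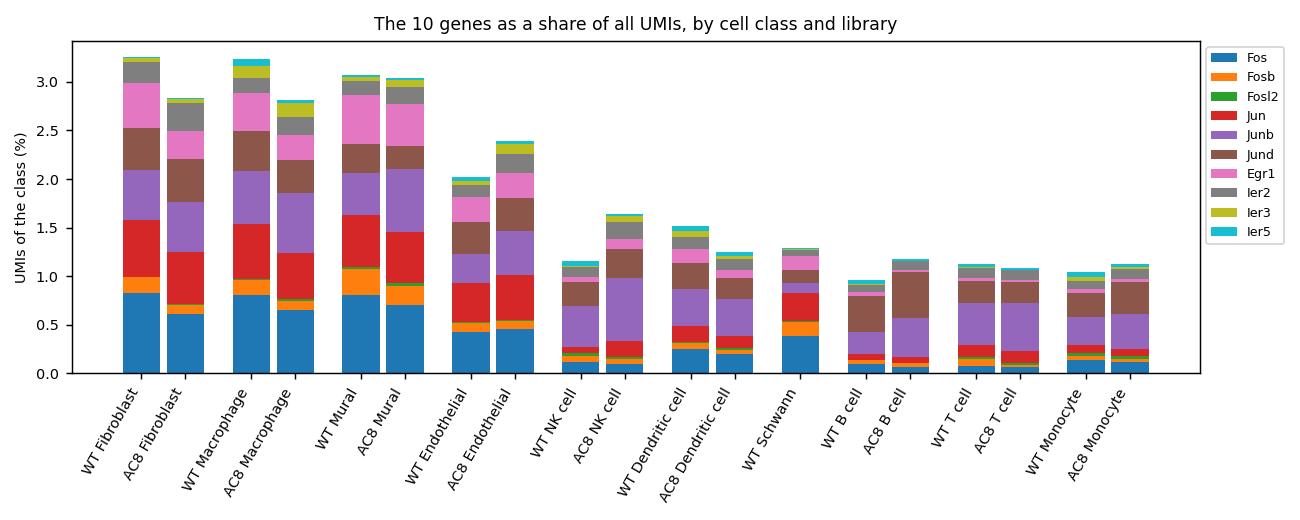
Percent of all UMIs of each cell class (y axis) taken by the 10 genes, as stacked bars for wild type (WT) and AC8, with no bar for AC8 Schwann-like cells, which were under 30. Fibroblast-like bars reach 3.26% and 2.83%, endothelial-like bars 2.02% and 2.39%, and B cell-like bars 0.96% and 1.18%.

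Fos encodes the partner of Jun in classical AP-1. Its level was 8298 CPM in wild-type fibroblast-like, 8022 in macrophage-like and 8021 in mural-like cells, against 788 in T cell-like cells, a spread of 10.5 times. The AC8 library gave 6077, 6512 and 7058 CPM in the same 3 stromal and macrophage classes, and 685 in T cell-like cells. Fosb, a Fos paralogue (chromosome 7, GRCm38, 19302696 to 19310051), was highest in mural-like cells in both libraries, with 2755 and 1978 CPM, and its interval there did not overlap the next class in wild type (fibroblast-like, 1580 CPM). Fosl2, which encodes Fra-2, had another order. Its level was highest in wild-type NK cell-like (313 CPM) and monocyte-like (284 CPM) cells, whose intervals overlapped, and was 87.3 CPM in fibroblast-like and 19.9 CPM in B cell-like cells. In B cell-like cells this rests on 3 and 11 UMIs.

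Jun (chromosome 4, 95049034 to 95052222), which can pair with itself as well as with Fos proteins, followed Fos across the classes. It measured 5771 CPM in fibroblast-like, 5669 in macrophage-like and 607 in NK cell-like cells of wild type. Junb and Jund were spread more evenly, by 5.74 and 3.10 times from the highest to the lowest class. Jund, known as the Jun gene with the steadiest expression, had a B cell-like level of 3701 CPM in wild type and 4742 in AC8, the latter above the 4446 CPM of AC8 fibroblast-like cells. It supplied 38.5% and 40.1% of the UMIs of the 10 genes in B cell-like cells, against 13.2% and 15.7% in fibroblast-like cells. Jun overlaps an annotated antisense transcript, and Junb and Jund overlap other annotated genes. The use of strand in counting is not given in the labels, so reads of such partners cannot be told apart.

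Egr1, a zinc finger factor induced through serum response factor, had a spread of 18.1 times across wild-type classes, from 5038 CPM in mural-like and 4664 in fibroblast-like cells to 278 in T cell-like cells. Ier2, a small nuclear protein of the immediate-early response, ranged only from 2170 CPM in fibroblast-like to 613 in Schwann-like cells. Ier3, known for a role in cell survival, was highest in macrophage-like cells with 1213 and 1376 CPM. Its level was 355 and 449 CPM in fibroblast-like cells and 22.2 and 23.9 CPM, from 2 and 3 UMIs, in T cell-like cells. Ier5, known to act on the heat shock factor Hsf1, was also highest in wild-type macrophage-like cells, at 740.0 CPM, followed by dendritic cell-like cells at 569. It was low in fibroblast-like cells, at 180 CPM, so that Ier5 did not share the order of Fos, Jun and Egr1. Over the 19 class and library levels, the correlation of each gene with the mean of the other 9 was 0.83 for Egr1, 0.79 for Ier2, 0.78 for Fos and 0.76 for Jun, but 0.10 for Fosl2 and -0.20 for Ier5. These points share libraries and are not independent.

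**Figure D2:**
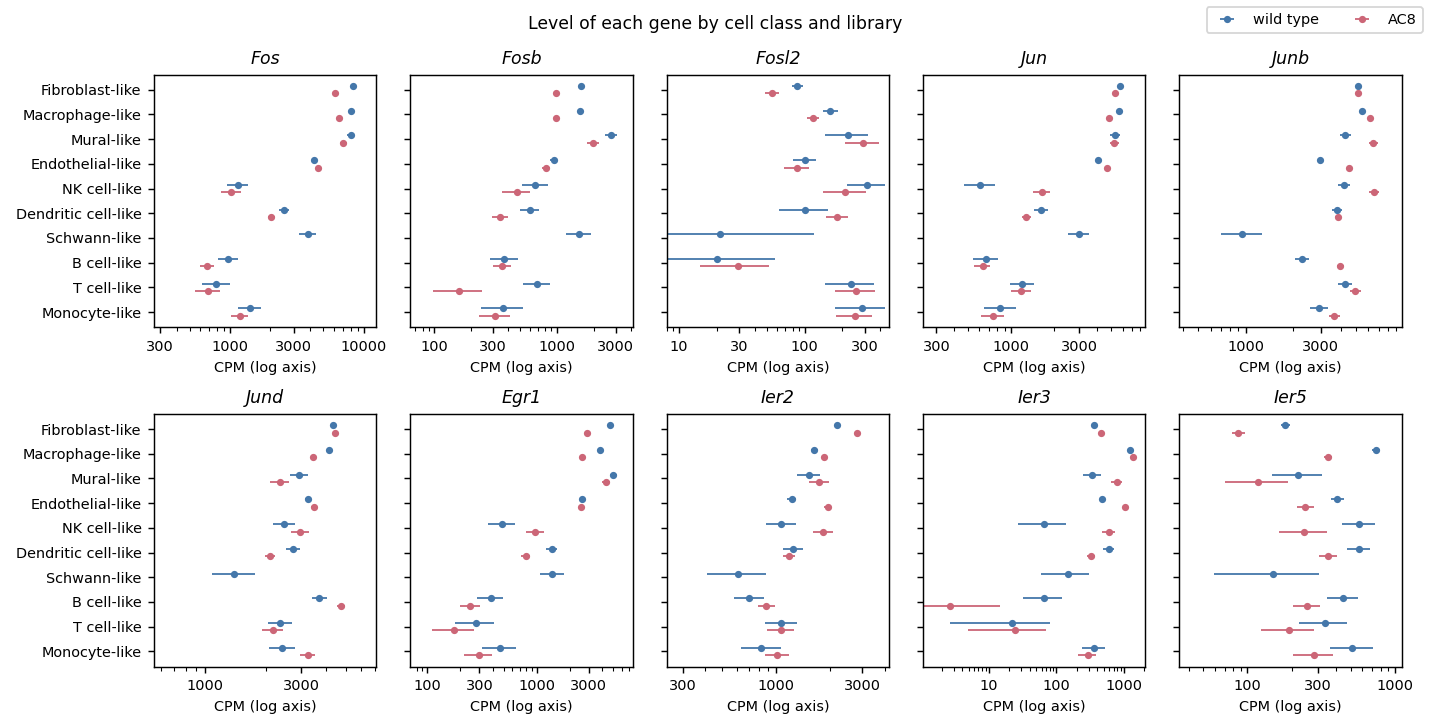
Level of each gene in CPM (log axis) by cell class, for wild type (blue) and AC8 (red), with exact Poisson intervals that cover counting error only. Fos, Jun and Egr1 lie to the right in the upper 3 classes, Ier5 is lower in AC8 in all 9 classes with both libraries, and 3 intervals (Fosl2 in Schwann-like and wild-type B cell-like, Ier3 in AC8 B cell-like cells) run past the left edge.

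Fibroblast-like cells of the AC8 library held less Fos, Fosb, Fosl2, Egr1 and Ier5 than those of wild type, about equal Junb and Jund, and more Ier2 and Ier3. Fos measured 8298 CPM in wild type and 6077 in AC8, a ratio of 0.732 (0.721 to 0.744). Fosb measured 1580 and 982 CPM (0.622) and Fosl2 87.3 and 54.7 (0.626). Egr1 was 4664 CPM in wild type and 2889 in AC8, a ratio of 0.620 (0.606 to 0.633). Ier5 had the lowest ratio of the 10, at 180 and 86.4 CPM (0.479, 0.423 to 0.542). Only 1.45% of the 10615 genes measured in this class had a lower ratio than Ier5.

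The Jun genes differed little between the fibroblast-like cells of the libraries. Jun measured 5771 and 5339 CPM (0.925), Junb 5184 and 5179 (0.999, with an interval that holds 1) and Jund 4317 and 4446 (1.03). Ier2 was higher in AC8, with 2170 and 2824 CPM (1.30), as was Ier3, with 355 and 449 (1.26). In all, 7 of the 10 genes had a ratio under 1, as did 57.4% of all genes measured, and 3 a ratio over 1 (42.6% of all genes). At least 1.5-fold lower were 4 of 10, against 11.7% of all genes, and at least 1.5-fold higher 0 of 10, against 4.55%. Their median log2 ratio was -0.28, beside -0.08 over all genes. Summed, the 10 genes measured 32606 and 28328 CPM, a ratio of 0.869 (0.862 to 0.875).

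The fibroblast-like class was made of different clusters in the libraries. Cluster 3 (led by Dcn, Clec3b and Htra3) held 723 wild-type and 98 AC8 cells, and cluster 7 (led by Clec3b, Gsn and Dcn) 42 and 445. Within each of the 5 fibroblast-like clusters, the ratio was under 1 for Fos (0.677 to 0.843), Egr1 (0.589 to 0.815) and Ier5 (0.410 to 0.768), and over 1 for Ier2 (1.13 to 1.41). The summed ratio ran from 0.810 to 0.958. The other genes, except Jund (1.01 to 1.33), did not keep a side within clusters. Fosb ran from 0.582 to 1.31, Fosl2 from 0.525 to 1.08, Jun from 0.809 to 1.16, Junb from 0.876 to 1.14 and Ier3 from 0.905 to 1.53. The summed ratio was also taken within strata of cell depth. It was 0.901 from 1000 to under 2000 UMIs, 0.894 from 2000 to under 4000 and 0.890 at 4000 or more. Some single genes varied more with depth. In the same order Fosb was 0.875, 0.617 and 0.598, Jun 1.02, 0.958 and 0.877, and Fosl2 1.01, 0.582 and 0.730. The Fosl2 interval held 1 in the first and last stratum. The Ier3 ratio fell with depth to 1.03 at 4000 or more UMIs, with an interval that holds 1. Fos (0.763, 0.733 and 0.824), Egr1 (0.647, 0.648 and 0.631) and Ier5 (0.470, 0.517 and 0.592) stayed under 1 in every stratum.

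**Figure D3:**
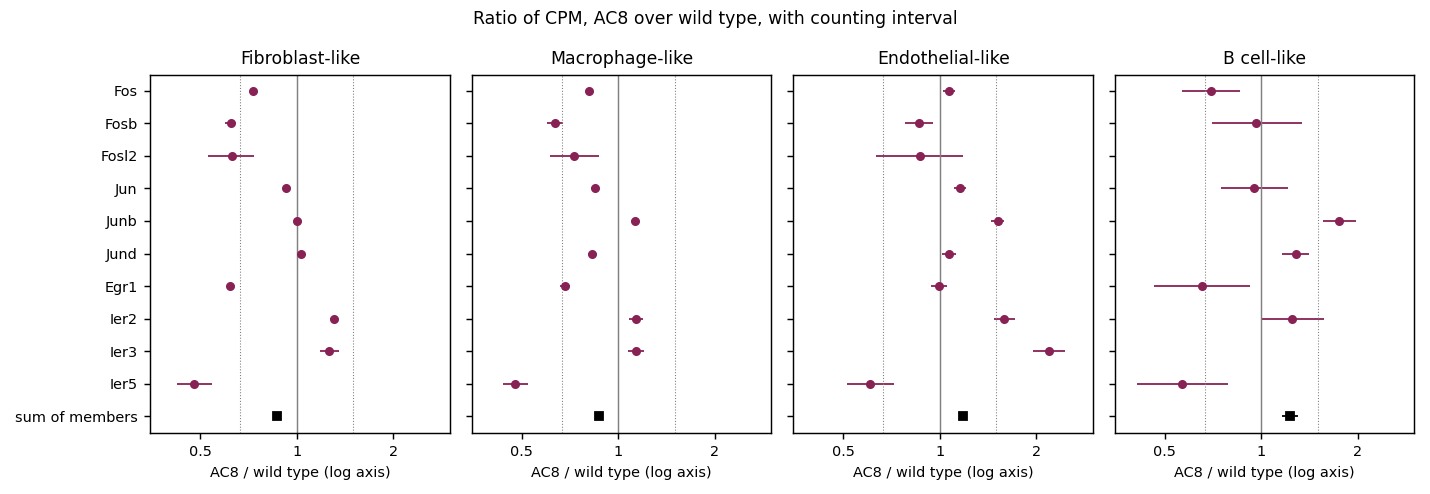
Ratio of CPM, AC8 over wild type (log axis), for each gene and for the sum of the 10 (black squares) in the 4 classes compared, with exact counting intervals and dotted lines at 1.5-fold. Ier5 lies left of 1 in all 4 classes, Junb lies at 0.999 in fibroblast-like and at 1.75 in B cell-like cells, and Fosl2 and Ier3 are left out in B cell-like cells for having under 30 UMIs.

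Macrophage-like cells showed Ier5 and Fosb lower in the AC8 library by more than 1.5-fold, and Junb, Ier2 and Ier3 slightly higher. Ier5 measured 740.0 and 354 CPM in wild type and AC8, a ratio of 0.478 (0.438 to 0.523), and Fosb 1549 and 982 (0.634). Egr1 was 3821 and 2599 CPM (0.680), Fos 8022 and 6512 (0.812), Fosl2 160 and 117 (0.730), Jun 5669 and 4802 (0.847) and Jund 4130.0 and 3432 (0.831). Junb, which can restrain the activity of Jun, was 5456 and 6133 CPM (1.12), Ier2 1627 and 1845 (1.13) and Ier3 1213 and 1376 (1.13).

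Of the 10 genes, 7 had a ratio under 1 in macrophage-like cells (53.1% of all 8561 genes measured) and 3 over 1 (46.9%). At least 1.5-fold lower were 2 of 10 (14.4% of all genes) and at least 1.5-fold higher 0 of 10 (11.8%), a share of lower genes near the background. The median log2 ratio was -0.28 beside -0.04 over all genes. The summed ratio was 0.869 (0.859 to 0.879), but it lay nearer to 1 or above it within strata of depth. It was 0.971 from 1000 to under 2000 UMIs, 1.10 from 2000 to under 4000 and 0.994 at 4000 or more. AC8 macrophage-like cells had a median of 3104 UMIs and those of wild type 1992. Within a library, macrophage-like cells that were deeper before thinning held fewer UMIs of the 10 genes after it (r = -0.22 in wild type over 603 cells and -0.28 in AC8 over 757).

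Ier5 and Egr1 were lower in AC8 within every stratum of macrophage-like depth. Their ratios in order of depth were 0.502, 0.626 and 0.527 for Ier5, and 0.760, 0.834 and 0.873 for Egr1. Fos, in contrast, gave 0.959, 1.03 and 0.947 and Jun 1.06, 1.10 and 0.903. Junb was 0.983, 1.43 and 1.30. Ier2 (1.15, 1.47 and 1.24) and Ier3 (1.16, 1.43 and 1.20) were higher in AC8 within every stratum, with intervals above 1. Fosb measured 1673 CPM in both libraries in the shallowest stratum (interval of the ratio 0.882 to 1.13), against ratios of 0.677 and 0.635 in the deeper ones, and its ratio over the class was 0.733 when cells were thinned. In cluster 5, led by C1qa, Cbr2, Folr2 and Lyve1 and with 263 and 389 cells, the summed ratio was 1.01 (0.994 to 1.03), and in cluster 6, led by C1qa, Ms4a7 and Cxcl2 and with 337 and 302 cells, it was 0.874. Cluster 15, led by Spp1, Lgals3 and Gpnmb, held 3 wild-type and 66 AC8 cells and its AC8 cells had 12484 CPM of the 10 genes and 574 of Egr1, the lowest among the macrophage-like clusters. Markers of other cells also differed in the macrophage-like class. The sum of 8 neutrophil markers (7 detected in each library, Ly6g at 0) was 418 and 114 CPM, and their part in the result was not tested.

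**Figure D4:**
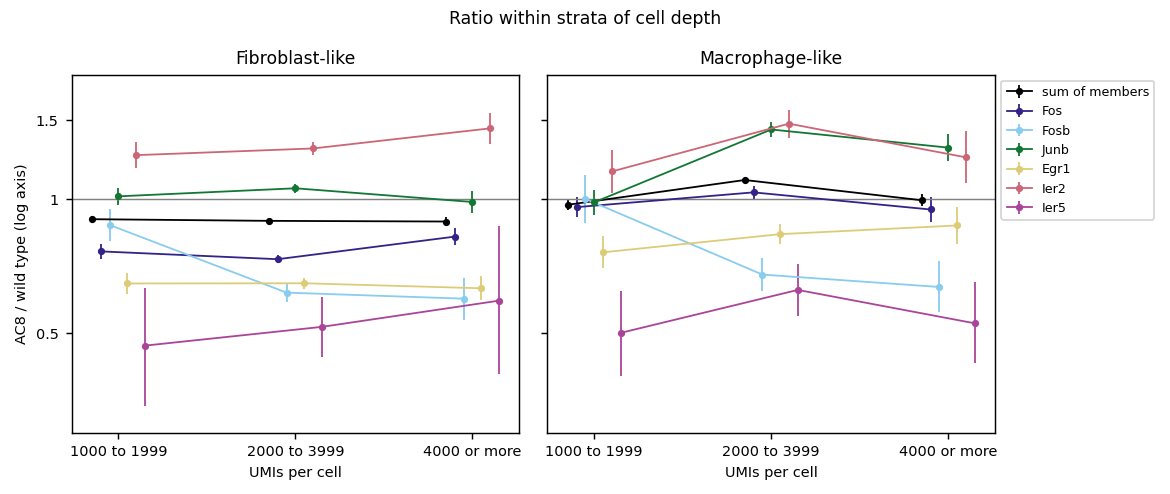
Ratio of AC8 over wild type (log axis) within strata of UMIs per cell for the sum of the 10 genes and 6 of them, with exact counting intervals. The fibroblast-like sum stays at 0.901 to 0.890 across strata, the macrophage-like sum lies at 0.971, 1.10 and 0.994, and Ier5 lies below 1 in every stratum of both panels.

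Endothelial-like cells differed from the stromal and macrophage classes in that the sum of the 10 genes was higher in AC8. It measured 20230.5 CPM in wild type and 23891 in AC8, a ratio of 1.18 (1.16 to 1.20). Ier3 had the highest ratio, at 479 and 1046 CPM (2.18, 1.95 to 2.45), and 99.2% of the 7357 genes measured had a lower one. Ier2 measured 1216 and 1933 CPM (1.59) and Junb 2980 and 4516 (1.52, 1.44 to 1.59). Jun was 4020 and 4647 CPM (1.16), Fos 4257 and 4551 (1.07) and Jund 3248 and 3482 (1.07). Egr1, low in AC8 fibroblast-like cells, was 2585 and 2572 CPM here (0.995, with an interval that holds 1). Ier5 was again lower, at 407 and 247 CPM (0.607, 0.513 to 0.718), as was Fosb, at 939 and 810 (0.863). Fosl2, at 100 and 86.8 CPM, had an interval that holds 1.

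In endothelial-like cells 3 of the 10 genes were at least 1.5-fold higher, against 7.8% of all genes, and 1 was at least 1.5-fold lower, against 10.2%. A ratio over 1 was found for 6 of 10 (47.2% of all genes) and under 1 for 4 (52.8%). The median log2 ratio was 0.10 beside -0.03 over all genes. Depth hardly differed here, with medians of 1318.5 and 1386 UMIs, and the summed ratio was 1.15 from 1000 to under 2000 UMIs and 1.14 from 2000 to under 4000. The sum of 10 mural markers (all detected in both libraries) was 697 and 291 CPM, and that of 5 erythroid markers 2486 and 694. The part of these in the result was not tested.

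B cell-like cells had Junb and Jund higher in AC8 and Ier5 lower. Fos and Egr1 had ratios under 1 that did not hold with all deposited cells. Junb measured 2279 and 3994 CPM (1.75, 1.56 to 1.98), from 343 and 1505 UMIs, and Jund 3701 and 4742 (1.28, 1.16 to 1.41). Ier2 was 704 and 878 CPM, with an interval of the ratio from 0.999 to 1.57. Ier5 was 445 and 252 CPM (0.566, 0.410 to 0.786). Fos was 970.0 and 677 CPM (0.698, 0.567 to 0.861) and Egr1 379 and 247 (0.652), from 146 and 255 UMIs of Fos and 57 and 93 of Egr1. Fosb (372 and 358 CPM) and Jun (664 and 632) had intervals that hold 1. Ier3 had 10 and 1 UMIs and Fosl2 3 and 11, so no ratio is given for them.

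Of the 8 genes measured in B cell-like cells, 5 had a ratio under 1 (52.8% of 2860 genes) and 3 over 1 (47.2%). At least 1.5-fold lower were 2, Egr1 and Ier5 (14.4% of all genes), and higher 1, Junb (11.1%). The median log2 ratio of the 8 was -0.06 beside -0.03 over all genes. The sum was 9601 and 11812 CPM (1.23, 1.16 to 1.31). The share of cells with a Fos UMI at equal depth went the other way from its CPM, with 36.0% in wild type and 42.1% in AC8, so no order is read for Fos. The sum of 10 endothelial markers in this class was 1668 CPM in wild type, with all detected, and 297 in AC8, with Emcn and Cldn5 at 0. Its part in the lower Fos and Egr1 was not tested. With all deposited cells, Fos and Egr1 were both higher in AC8 (1.11 and 1.07).

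Across all 9 classes with at least 30 cells in each library, Ier5 and Fosb were lower in AC8 in 9 of 9. The Ier5 ratios ran from 0.426 in NK cell-like to 0.619 in dendritic cell-like cells, with the interval below 1 in 7 classes. Fosb ratios ran from 0.232 in T cell-like (62 and 20 UMIs) to 0.963 in B cell-like cells, with the interval below 1 in 6. Fos and Egr1 each had a ratio under 1 in 8 of 9, with the interval below 1 in only 5. The 5 include B cell-like cells for each, where neither direction held with all deposited cells. Junb was higher in 8 of 9, with the interval above 1 in 7, and Ier2 in 7 of 9, with the interval above 1 in 4. Jund was higher in 5 and lower in 4. Ier3 was higher in 5 of 7 classes measured, and Fosl2 lower in 5 of 8. The sum was lower in 5 of 9. Dendritic cell-like cells (53 and 116) had the lowest summed ratio, 0.820. They differed from most classes in Ier3 (0.547, 0.432 to 0.695) and Fosl2 (1.81, 1.12 to 3.05, from 21 and 98 UMIs). NK cell-like cells (60 and 63) had high ratios of several genes that rest on few cells. Jun was 607 and 1643 CPM there (2.71, 2.04 to 3.64), Egr1 484 and 970.0 (2.01), and Ier3 66.4 and 595, from 7 and 76 UMIs. In AC8, the tenth of NK cell-like cells with the most UMIs of each gene, after thinning, held 68.4% of the Jun, 67.2% of the Egr1 and 88.9% of the Ier3 UMIs. An Ier3 UMI was present in 17.5% of these cells, and in 3.33% in wild type. The classes other than the 4 compared have fewer than 100 cells in at least 1 library, and their ratios only describe these libraries.

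The balance of Fos to Jun family transcripts was lower in AC8 in every one of these 9 classes. In the fibroblast-like class there were 0.652 UMIs of Fos, Fosb and Fosl2 per UMI of Jun, Junb and Jund in wild type and 0.475 in AC8. The values were 0.638 and 0.530 in macrophage-like, 0.517 and 0.431 in endothelial-like and 0.205 and 0.114 in B cell-like cells. Mural-like cells had 0.875 and 0.662. As a ratio of AC8 to wild type this ran from 0.526 in NK cell-like to 0.895 in dendritic cell-like cells, with a median of 0.729. A ratio within a library shows unequal change between the families, not which of them changed.

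At equal depth, with each cell thinned to 1000 UMIs, the mean number of the 10 genes found in a fibroblast-like cell was 6.32 (SD 1.69 over 1898 cells) for wild type and 5.999 (SD 1.77 over 1534 cells) for AC8. Macrophage-like cells showed 7.11 and 6.68, endothelial-like 5.32 and 5.53 and B cell-like 3.50 and 3.77. The share with at least 8 of the 10 was 22.2% (20.3 to 24.1) and 15.1% (13.4 to 17.0) in fibroblast-like, and 47.1% and 34.3% in macrophage-like cells. The fibroblast-like difference in Egr1 was seen both in how many cells had it and in the mean per cell after thinning, 4.71 and 2.94 UMIs. An Egr1 UMI was present after thinning in 90.8% of wild-type and 78.4% of AC8 fibroblast-like cells (96.0% and 89.8% before). For Ier5 the shares were 49.6% and 27.9% in macrophage-like cells (68.5% and 60.5% before thinning) and 30.1% and 18.2% in endothelial-like cells (37.2% and 28.5% before). Ier3 went the other way in endothelial-like cells, with 27.1% and 40.4% of cells (34.3% and 47.7% before).

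No class is known to lack these genes, so free RNA was gauged with genes of other cells. Dcn, a fibroblast gene, had a UMI in 10.8% and 11.6% of B cell-like cells after thinning, at 1214 and 1169.5 median UMIs, and in 7.79% and 3.04% of macrophage-like cells. Col1a1, another fibroblast gene, had one in 1.80% and 1.71% of B cell-like cells, and C1qa, a macrophage gene, in 0.901% and 3.77%. The share thus differed between genes of other cells, and no single share stands for background. The B cell-like shares of Egr1, 17.1% (10.6 to 25.4) and 13.4% (9.67 to 17.8), have intervals that overlap those of Dcn and lie above the shares of Col1a1 and C1qa, so whether they exceed background cannot be read from these genes. Fosl2, in 1.80% and 2.05% of B cell-like cells, and Ier3, in 2.70% and 0%, have intervals that overlap those of Col1a1. These intervals are wide (0.219 to 6.36% for Col1a1 in wild type), so whether Fosl2 and Ier3 exceed background cannot be read either.

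**Figure D5:**
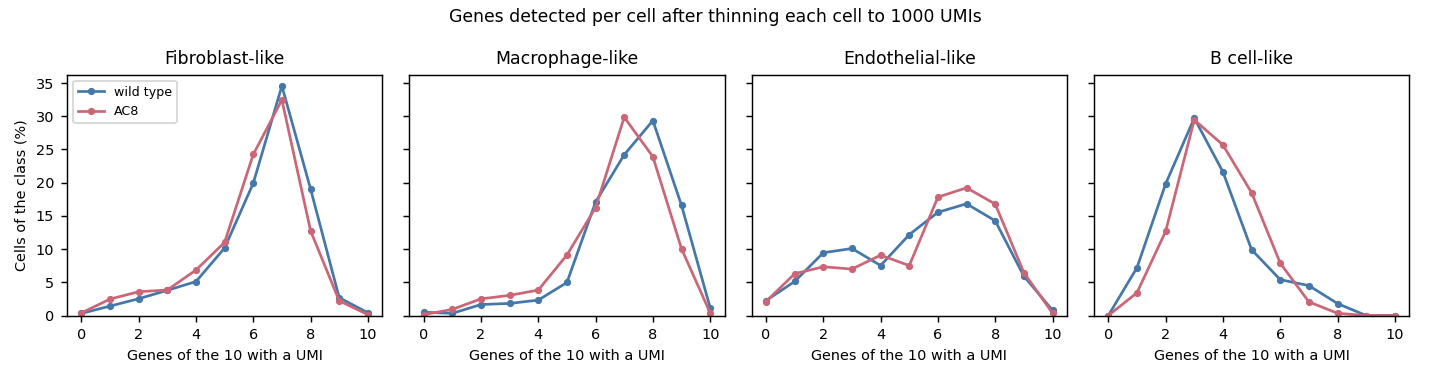
Percent of cells of a class (y axis) by the number of the 10 genes with a UMI after thinning each cell to 1000 UMIs (x axis), for wild type (blue) and AC8 (red). The fibroblast-like and macrophage-like curves of AC8 lie to the left of wild type (means of 5.999 against 6.32 and 6.68 against 7.11), and the B cell-like curve to the right (3.77 against 3.50).

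Within a class, cells high in Fos tended to be high in Jun and Junb, while Fosl2, which has few UMIs, did not go with them. In fibroblast-like cells the correlation of Fos and Jun was 0.60 in wild type (1898 cells) and 0.54 in AC8 (1534), and that of Jun and Junb 0.56 and 0.58. Fos and Fosl2 gave -0.01 in wild type and 0.01 in AC8. Endothelial-like cells gave 0.62 and 0.71 for Fos and Junb. The sum of the 10 genes went with the sum of 20 heat shock and chaperone genes across cells, with r = 0.41 and 0.35 in fibroblast-like, 0.37 and 0.41 in macrophage-like and 0.51 and 0.60 in endothelial-like cells, but 0.07 and 0.16 in B cell-like cells. These are descriptions over cells that share a library and a depth.

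The genes most like the 10 across fibroblast-like cells are immediate-early or stress-induced genes. Over 3432 fibroblast-like cells the highest correlations with the sum of the 10 (mean of both libraries), among 3367 genes, were those of Zfp36 (0.69), which encodes an RNA-destabilising protein, Atf3 (0.52), a stress-induced partner of AP-1 proteins, the phosphatase gene Dusp1 (0.51), the cytokine signalling inhibitor Socs3 (0.50), Btg2 (0.48) and Klf2 (0.43). Over the 19 class and library levels, among 7360 genes, they included Trim47 (0.92), Zfp36 (0.87), Gadd45g (0.86), Pcyt1a (0.85) and Tmem159 (0.85). Of 25 other immediate-early genes expressed in at least 10% of fibroblast-like cells, 18 were among the 50 most correlated, and their median correlation was 0.23 beside -0.01 over all genes.

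Other immediate-early, heat shock and dissociation-response genes were mostly lower in AC8 fibroblast-like cells as well. Of 38 other immediate-early genes measured in fibroblast-like cells, 34 had a ratio under 1, 15 were at least 1.5-fold lower and 0 higher, with a median log2 ratio of -0.41 beside -0.08 over all genes. The nuclear receptor gene Nr4a3 measured 102 and 37.2 CPM (0.364), Sik1 56.4 and 20.9 (0.370) and Egr3 52.5 and 20.4 (0.388). Of 20 heat shock and chaperone genes, 17 were under 1, with a median of -0.32, and Hspa1a, the inducible Hsp70 gene, measured 559 and 314 CPM (0.562). Of 62 other dissociation-response genes 50 were under 1 (median -0.28). The 12 housekeeping genes had 5 under 1 and a median of 0.07. Of all genes measured in this class, 57.4% had a ratio under 1, 11.7% were at least 1.5-fold lower and 4.55% higher.

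The contrast with endothelial-like cells held for these lists as well. There 16 of 37 other immediate-early genes were under 1 and 5 were at least 1.5-fold higher (median log2 0.08). Gadd45g measured 510.1 and 1039 CPM (2.04) and Nr4a1 211 and 365 (1.73), while Tnfaip3, from 51 and 22 UMIs, had the widest ratio, 0.440. Heat shock genes had a median of 0.00, with 9 of 19 under 1, and other dissociation-response genes 0.06, with 27 of 57. Among all endothelial-like genes measured, 52.8% were under 1 and 7.8% at least 1.5-fold higher. In macrophage-like cells, 16 of 18 heat shock genes were under 1 (median -0.51). Hspb1 measured 261 and 103 CPM (0.396) and Hspa1a 3026 and 1487 (0.491). Of 38 other immediate-early genes 26 were under 1 (median -0.20), with Ccn1 at 225 and 111 CPM (0.495) but Bhlhe40 at 28.2 and 87.5 (3.10). Of 61 other dissociation-response genes 43 were under 1 (median -0.28), against 53.1% of all genes measured in the class. In AC8, Hspb1 stood at 2.32% of the level of its highest class, Bhlhe40 at 9.98%, Ccn1 at 12.2% and Hspa1a at 65.9%. Dcn, a fibroblast gene, measured 87.4 and 31.8 CPM in macrophage-like cells. The part of free RNA in these ratios was not tested.

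Within strata of depth the summed heat shock ratio in macrophage-like cells was 0.705, 0.797 and 0.873, so that it stayed under 1 where the sum of the 10 genes did not. B cell-like cells had 8 of 13 heat shock genes under 1 (median -0.15), 12 of 27 other immediate-early genes (median 0.14) and 24 of 41 other dissociation-response genes (median -0.08). Among all B cell-like genes measured, 52.8% were under 1. Nr4a1, induced by antigen receptor signalling, was 1874 and 3073 CPM there (1.64, 1.44 to 1.87). How much of any of these levels arose in the heart and how much during dissociation and sorting was not tested.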

How the data were processed

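Single-cell RNA of heart cells was measured in 1 droplet library per genotype. The deposited matrices hold raw UMI counts by gene and cell. The submitters' processing notes name Cell Ranger, without a version, and mm10. Deposited cells had 500 UMIs or more. Cell barcodes are running numbers in both libraries, so barcodes shared between them could not be counted.

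Cells were kept with at least 1000 UMIs, 500 genes and at most 10% mitochondrial UMIs. This left out 2066 and 1126 shallow cells and 15 and 18 for mitochondrial content, in wild type and AC8. The highest doublet scores, 173 and 145 cells at 0.8% per 1000 cells, were removed. The 2000 most variable genes, without 149 genes of the stress lists (the 10 genes among them), gave 30 principal components over both libraries without integration. Leiden clustering at resolution 1 on 15 neighbours gave 18 clusters, named by fixed markers (at least 3 in at least 10% of cells, with no other lineage at 0.75 of the score). No cluster stayed unnamed. Names and shares rest on these rebuilt classes.

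Counts were summed per class and library and scaled to CPM. Classes with at least 30 cells in a library have levels, and those with at least 100 in each are compared. A gene is measured with at least 30 UMIs over both libraries, and is called apart at 1.5-fold. Intervals are exact at 95% (Poisson for CPM, binomial for ratios, Clopper-Pearson for shares), treat UMIs as independent and cover counting error only. No p-value was computed. Correlations over cells use logged counts per 10000, and those over class levels log2 of CPM + 10. Ratios were tested on simulated data. The quantity of Fos per Jun family UMIs and the cluster values with at least 30 cells were added after the data were seen.

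All 10 genes are given in each class compared. Of each other list at most the 4 measured genes with the largest log2 ratio could be named, and the 6 genes most like the 10, of which 1 is not reported here. The members and lists were chosen with earlier results of these data known. The lists are other AP-1 and related basic leucine zipper genes, other immediate-early genes, kinases and phosphatases upstream of AP-1, known AP-1 or Egr1 targets, heat shock and chaperone genes, other dissociation-response genes and housekeeping genes. Alternatives changed the cell filters, clustering, scaling, thinning, fold and genes summed. Gene positions come from GENCODE on GRCm38 and promoters from RefSeq. Clustering used leidenalg 0.10.2, igraph 0.11.9 and scikit-learn 1.9.0. Values were computed in Python 3.11.15 with scipy 1.17.1, pandas 2.3.3 and numpy 2.4.6.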

Additional observations from a re-analysis of the deposited data

Results flagged for a closer look

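Only the 4 classes with at least 100 cells in each library were searched here. In 4 cases the ratio of AC8 to wild type lay below 1 in 1 class and above 1 in another, with counting intervals that exclude 1 in both. With the smaller classes, Egr1, Fosl2 and Ier3 also had intervals below 1 in some classes and above 1 in others. The differences between classes were not tested, since each genotype has 1 library. The summed genes had a ratio 1.42 times higher in B cell-like (1.23) than in fibroblast-like cells (0.869). Fos had a ratio 1.53 times higher in endothelial-like (1.07) than in B cell-like cells (0.698), where its level rests on 146 and 255 UMIs. That B cell-like ratio was 1.11 with all deposited cells, so no order is read from it. In fibroblast-like cells the Fos ratio was 0.732, from 36314 and 26796 UMIs. Jun had a ratio 1.36 times higher in endothelial-like (1.16) than in macrophage-like cells (0.847), and within strata of macrophage-like depth it was 1.06, 1.10 and 0.903. Jund had a ratio 1.54 times higher in B cell-like (1.28) than in macrophage-like cells (0.831), with 0.999, 1.08 and 0.990 within the macrophage-like strata.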

How the results depend on the processing

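No paired analysis was possible because each genotype has 1 library. Of 438 alternative values for 38 gene and class ratios, 18, in 6 of these ratios, lay on the other side of 1. For 15 of them the reported interval holds 1 already (Junb in fibroblast-like, Egr1 in endothelial-like, Fosb and Jun in B cell-like cells). The other 3 were in B cell-like cells: Fos with all deposited cells (1.11), and Egr1 with all deposited cells (1.07) and with no doublet removal (1.13). The cause was not tested. The summed ratio changed side in macrophage-like cells, in cluster 5 alone (1.01) and in the stratum from 2000 to under 4000 UMIs (1.10).

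The summed ratio is given here for fibroblast-like, macrophage-like, endothelial-like and B cell-like cells in this order, where it moved beyond its counting interval. It was 0.921, 0.895 and 1.21 when scaled by the median ratio, and 0.923, 0.924, 1.22 and 1.36 with TMM scaling, whose factor for B cell-like cells is 0.903. Cells weighted equally gave 0.885, 0.913 and 1.16, and thinning to 1000 UMIs 0.882, 0.904 and 1.16. Leaving out 1 gene gave 0.838 (without Ier2) to 0.915 (without Fos), 0.818 (without Junb) to 0.895 (without Egr1), 1.12 (without Junb) to 1.21 (without Fos), and 1.07 without Junb in B cell-like cells. All deposited cells gave 0.877 in fibroblast-like and 0.939 in macrophage-like cells, and clusters 1 and 4 alone 0.881 and 0.810. Further macrophage-like values were 0.962 with at least 2000 UMIs, 0.945 at Leiden resolution 0.6 and 0.855 with the total without mitochondrial, ribosomal and hemoglobin genes. Further endothelial-like values were 1.14 without doublet removal and 1.22 in cluster 2 alone.

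Genes at least 1.5-fold lower numbered 2 of 10 in fibroblast-like cells, instead of 4, with cells weighted equally or thinned. In macrophage-like cells they numbered 1, instead of 2, with all deposited cells, Leiden resolution 0.6, TMM scaling, cells weighted equally or thinned. In B cell-like cells they numbered 1, instead of 2, with all deposited cells, no doublet removal, all variable genes, TMM scaling or cells weighted equally, and 0 when thinned. Endothelial-like genes at least 1.5-fold higher numbered 1, instead of 3, with all deposited cells. At a fold of 2 the lower genes numbered 1, 1, 0 and 0 in the 4 classes and the higher ones 1 in endothelial-like and 0 in B cell-like cells. At the lower fold tried the higher genes numbered 2 in fibroblast-like and 2 in B cell-like cells, and the lower ones 4 in macrophage-like cells. With at least 2000 UMIs and 1000 genes, the endothelial-like cells could not be named and B cell-like cells were too few, so there is no value. Ier5 stayed under 1 in all 4 classes, from 0.461 to 0.674 over the alternatives for whole classes. It ran from 0.410 to 0.768 within their clusters of at least 30 cells and from 0.470 to 0.679 within strata of depth. This was not particular to Ier5, since the housekeeping gene Rpl13a was under 1 in all 4 classes as well (0.499, 0.431, 0.521 and 0.455). With 1 library per genotype, more UMIs narrow the counting intervals but not the difference between pools, and under 30 UMIs leave Fosl2 and Ier3 unread in B cell-like cells.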

Other observations

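As a list, genes known as targets of AP-1 or Egr1 did not follow the 10 genes in every class or on every measure. In fibroblast-like cells 12 of 17 measured targets had a ratio of AC8 to wild type under 1, with a median log2 ratio of -0.40, but their summed level was higher in AC8, at 6803 and 8230 CPM (1.21, 1.19 to 1.23), so median and sum differ in sign. Thbs1, a matricellular protein gene, measured 473 and 144 CPM (0.304), while Timp1, an inhibitor of matrix proteases, measured 117 and 339 (2.89, 2.61 to 3.20). In macrophage-like cells 7 of 17 were under 1, with a median of 0.09. Spp1, which encodes osteopontin, measured 86.7 and 709 CPM (8.18) and leads cluster 15, which lies mostly in the AC8 library. Endothelial-like targets had 8 of 12 under 1 (median -0.16) and a summed ratio of 1.36, with Vim at 2042 and 3392 CPM (1.66), and B cell-like targets 1 of 4 (median 0.18). The share of all genes under 1 was 57.4%, 53.1%, 52.8% and 52.8% in these classes in this order.

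Kinases and phosphatases upstream of AP-1 had 20 of 27 under 1 in fibroblast-like (median -0.26), 17 of 24 in macrophage-like (-0.22), 12 of 24 in endothelial-like (0.00) and 4 of 9 in B cell-like cells (0.03). In the same order, 57.4%, 53.1%, 52.8% and 52.8% of all genes were under 1, which is the background for every list of this paragraph. In fibroblast-like cells Dusp6, a phosphatase that acts on Erk and is itself induced by it, measured 37.2 and 20.4 CPM (0.548). Mapk3, which encodes Erk1, measured 255 and 414 CPM in endothelial-like cells (1.62). Other AP-1 and related basic leucine zipper genes had 8 of 13 under 1 in fibroblast-like (median -0.18), 11 of 16 in macrophage-like (-0.13), 2 of 13 in endothelial-like (0.29) and 1 of 3 in B cell-like cells (0.30). Jdp2, a repressor that pairs with Jun proteins, measured 336 and 156 CPM in macrophage-like cells (0.464, 0.406 to 0.530). Housekeeping genes had medians of 0.01 in macrophage-like, -0.01 in endothelial-like and -0.10 in B cell-like cells. In these classes 6 of 12, 6 of 12 and 6 of 11 were under 1. Single housekeeping genes lay further from 1. In macrophage-like cells Rpl13a had a ratio of 0.431, but Pgk1 2.44 and Gapdh 1.81.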
